A study of Saccharomyces cerevisiae W303 with 16 samples.

Results

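*PDE2* (YOR360C) and 6 genes named for bypass of their stop codon, *BSC1* (YDL037C), *BSC2* (YDR275W), *BSC3* (YLR465C), *BSC4* (YNL269W), *BSC5* (YNR069C) and *BSC6* (YOL137W), were followed in yeast cells with a temperature-sensitive release factor eRF1. These 7 genes were picked by name and were found in the files by their systematic names, as 7 of the 6952 transcripts quantified by RNA-Seq and 7 of the 6575 in the readthrough tables. RNA-Seq of rRNA-depleted total RNA and ribosome profiling, in which the stretches of mRNA covered by ribosomes are sequenced as footprints, were each done on 2 libraries of 4 conditions. The conditions were heated *sup45-ts* cells (30 min at 37°C), heated *SUP45* cells (also 30 min at 37°C), unheated *sup45-ts* cells (a mock shift at 25°C) and unheated *SUP45* cells (the same mock shift). *sup45-ts* cells carry the *sup45-2* allele, which encodes a temperature-sensitive eRF1, and *SUP45* cells are wild type for this gene. Both strains are of the W303 background, share the premature stop codons of *ade2-1* and *can1-100*, and are each a single strain, so that a strain difference at one temperature is a difference between these strains only. The labels do not say whether replicates came from separate cultures, so the p-values measure the spread between these libraries, which may be technical.

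eRF1, the product of *SUP45*, recognizes all stop codons in the ribosomal A site and releases the finished protein. A near-cognate tRNA that gets there first lets the ribosome read on in the same frame until the next in-frame stop codon, and the added stretch is called the extension. *PDE2* encodes the high-affinity cAMP phosphodiesterase, which lowers cAMP and with it the activity of protein kinase A, and bypass of its stop codon in cells carrying the prion form of eRF3 is known to give a longer and less stable protein. The *BSC* genes came out of a search of the yeast genome for neighbouring open reading frames parted by a single stop codon, so that reading on through that codon joins them.

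In the R64 assembly, *PDE2* lies on chromosome XV at 1013241 to 1014821 (minus strand), *BSC1* on chromosome IV at 384601 to 385587 (minus strand) and *BSC2* on chromosome IV at 1012252 to 1012959 (plus strand). *BSC4* lies on chromosome XIV at 137699 to 138094 (plus strand), *BSC5* on chromosome XIV at 761123 to 762592 (minus strand) and *BSC6* on chromosome XV at 65621 to 67114 (plus strand). *BSC2* is listed there as *TLD1*, after its product, a lipid droplet protein that limits lipolysis, and no position is given here for *BSC3*. *BSC4* is known as a gene that arose from non-coding sequence, *BSC1* resembles the cell surface flocculin Flo11, *BSC6* encodes a putative membrane protein, and *BSC5* is the first part of a locus also called *BUL3*, whose relatives *BUL1* and *BUL2* help the ubiquitin ligase Rsp5 find its targets. Next to *BSC5* on the same strand, after a gap of 237 nt, lies YNR068C (chromosome XIV, 760067 to 760885), the second part of *BUL3*. Next to *BSC1*, after a gap of 519 nt, lies *PRM7* (YDL039C, chromosome IV, 381985 to 384081), and in W303 the pair has been described as a single long gene, *IMI1*. RefSeq lists YDL038C, the part of *IMI1* between them in older maps, as a synonym of *PRM7*, whose transcript was used for it. The transcriptome used for the counts was built on S288C, and the W303 sequence at these loci was not examined.

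The extension of *PDE2* was 66 nt, or 22 codons counted from the stop codon itself, inside a 3'-UTR of 105 nt. Each of the 6 *BSC* genes had an extension of 176 nt, as long as its whole 3'-UTR window, so that no in-frame stop codon ended it. Such a full-length extension was present in 5.90% of all transcripts (388 of 6575), and since the *BSC* genes were named for an open frame after the stop codon, 6 of 6 follows from their choice. The window of 176 nt is the default of 173 nt plus the stop codon that was given to genes without a mapped 3'-UTR, so only *PDE2* has a 3'-UTR end from data. In the 388 transcripts the 3'-UTR and extension counts were the same in all 4 tables.

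RNA-Seq libraries held 107324550 to 153654244 expected counts, and the readthrough tables, 1 per condition with the replicates combined, held 6463100 to 21557248 footprints, the fewest in heated *sup45-ts* cells. An mRNA level is given in FPKM, the share of a library's fragments per kb of transcript, in which fewer cells and less RNA per cell cannot be told apart. All 7 genes passed the filter on low counts, as did 6767 transcripts in all, and mRNA differences are log2 fold changes from edgeR's quasi-likelihood test with p-values adjusted over all 6767. *SUP45* mRNA itself was at 169 and 161 FPKM in heated *sup45-ts* cells, against 259 and 277 FPKM in heated *SUP45* cells. The *sup45-2* change is not seen in counts per transcript, so they do not check the labels.

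At 37°C the mRNA of 6 of the 7 genes was higher in *sup45-ts* cells and that of *BSC6* was lower. The difference was 7.55-fold for *BSC5*, 6.50-fold for *BSC4*, 6.06-fold for *BSC1*, 2.02-fold for *BSC2*, 1.56-fold for *PDE2* and 1.20-fold for *BSC3*. Across all transcripts tested, 39.5% were called higher and 39.4% lower in this comparison, with a median log2 fold change of -0.01, against a median of 1.01 over the 7 genes. With almost 4 of 5 transcripts called, 7 calls of 7 are close to the background, and the sizes say more than the count. How many of all transcripts had libraries without overlap between the strains was not counted. A lack of overlap, where given below, therefore only describes the values.

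*PDE2* mRNA was at 131 and 117 FPKM in heated *sup45-ts* cells, against 77.3 and 82.5 FPKM in heated *SUP45* cells. Both mutant libraries stood above both wild-type ones, and edgeR gave a log2 fold change of 0.64 (SE 0.06, adjusted p = 5.51e-06). At 25°C the strains lay close together, with 43.5 and 45.7 FPKM in *sup45-ts* cells against 47.3 and 48.7 FPKM in *SUP45* cells (log2 fold change -0.01, edgeR adjusted p = 0.953).

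*BSC5* had the largest strain difference of the 7 genes. Its mRNA was at 209 and 186 FPKM in heated *sup45-ts* cells, against 25.0 and 27.5 FPKM in heated *SUP45* cells (log2 fold change 2.92, SE 0.08, edgeR adjusted p = 7.53e-09). At 25°C it was at 3.79 and 3.52 FPKM in *sup45-ts* cells and at 4.21 and 4.96 FPKM in *SUP45* cells. The groups did not overlap at either temperature, but only the difference at 37°C passed the test, since at 25°C edgeR gave -0.23 with an adjusted p of 0.340. YNR068C, downstream of *BSC5*, was at 132 and 111 FPKM in heated *sup45-ts* cells, against 21.7 and 23.4 FPKM in heated *SUP45* cells, and rose by a log2 fold change of 2.44 (SE 0.09, edgeR adjusted p = 2.24e-08).

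*BSC1* mRNA was at 30.1 and 30.4 FPKM in heated *sup45-ts* cells, against 4.97 and 5.06 FPKM in heated *SUP45* cells (log2 fold change 2.60, SE 0.22, edgeR adjusted p = 3.37e-06). *PRM7*, which encodes a protein regulated by mating pheromone and lies downstream of *BSC1*, was at 24.1 and 28.0 FPKM in heated *sup45-ts* cells, against 3.18 and 4.05 FPKM in heated *SUP45* cells (log2 fold change 2.87, SE 0.22, edgeR adjusted p = 1.52e-06). The upstream and downstream mRNAs of this pair thus stood at like levels per length and differed between the strains by like amounts.

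*BSC4* was the least abundant of the 7 mRNAs, at 4.81 and 4.89 FPKM in heated *sup45-ts* cells against 0.75 and 0.74 FPKM in heated *SUP45* cells. The fold rests on 259 and 300 expected counts in *sup45-ts* cells and 54 and 37 in *SUP45* cells (log2 fold change 2.70, SE 0.18, edgeR adjusted p = 7.60e-07). The *BSC4* transcript, taken with a default 5'-UTR of 97 nt, overlaps that of *ALP1* on the other strand by 157 nt. The length of this overlap thus rests in part on an assumed 5' end. The RNA-Seq libraries were made with a stranded kit, but the labels and methods do not say whether the counting used strand. Reads of that stretch may therefore not have been told apart.

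*BSC2* mRNA was at 55.0 and 55.4 FPKM in heated *sup45-ts* cells, against 27.1 and 28.0 FPKM in heated *SUP45* cells (log2 fold change 1.01, SE 0.09, edgeR adjusted p = 5.22e-06). *BSC6* went the other way, with 26.9 and 25.8 FPKM in heated *sup45-ts* cells against 47.0 and 49.3 FPKM in heated *SUP45* cells (log2 fold change -0.86, SE 0.06, edgeR adjusted p = 6.74e-07). Neither gene's libraries overlapped between the strains. *BSC6* has an 81 nt overlap of its 3'-UTR window with the transcript of *PFK27* on the other strand, to which the same limit of counting applies.

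*BSC3* moved least, with 37.5 and 41.6 FPKM in heated *sup45-ts* cells against 32.1 and 34.3 FPKM in heated *SUP45* cells. The libraries did not overlap, and the log2 fold change of 0.26 (SE 0.10) had an edgeR adjusted p of 0.0332. The call was lost without *sup45-ts* replicate 2 at 37°C (log2 fold change 0.14, edgeR adjusted p = 0.236), without *SUP45* replicate 1 at 37°C (0.24, adjusted p = 0.124) and without *SUP45* replicate 2 at 37°C (0.25, adjusted p = 0.112), as well as in DESeq2 (adjusted p = 0.0560) and with libraries scaled by their totals (edgeR adjusted p = 0.0659).

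**Figure D1:**
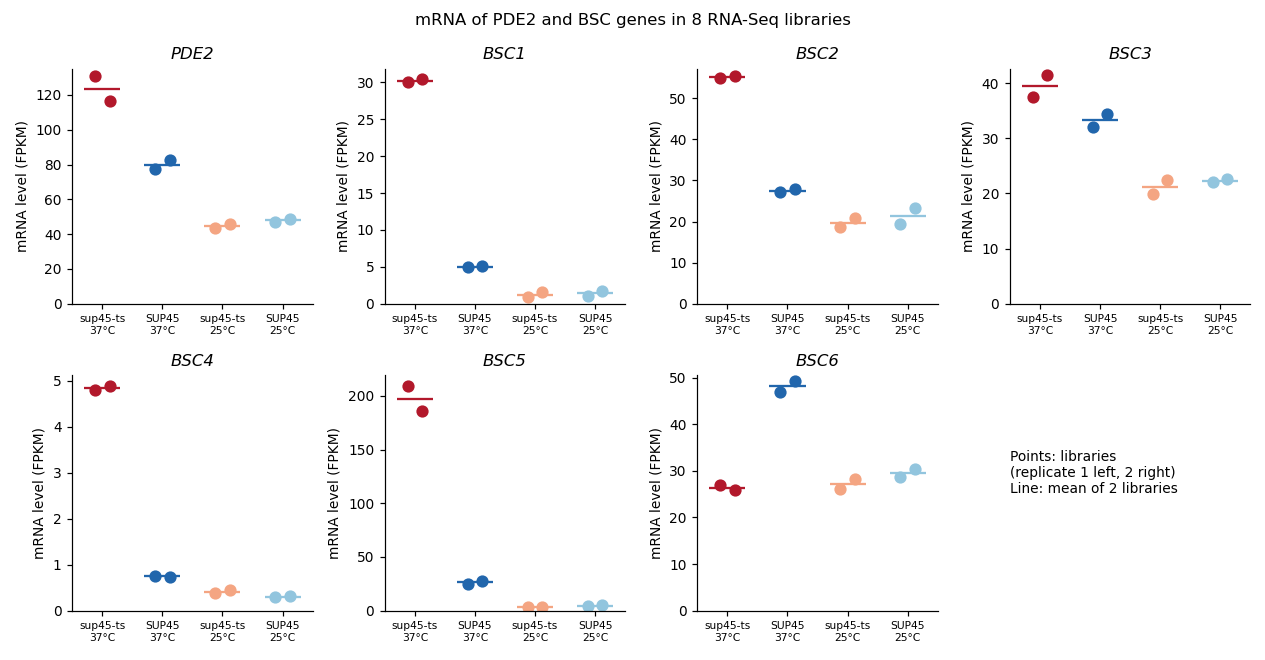
mRNA level of each gene in FPKM (y axis, from 0 in each panel) in the 2 RNA-Seq libraries of each condition (points) with their mean (line). In 6 of the 7 panels the libraries of heated *sup45-ts* cells are the highest, up to 209 FPKM for *BSC5*, and in the *BSC6* panel those of heated *SUP45* cells are.

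At 25°C 0 of the 7 genes were called between the strains. edgeR called 0.118% of transcripts higher and 0.0148% lower at this temperature, 9 of 6767 in all, and DESeq2 called 120 transcripts and 0 of the 7 genes. Of the 7 genes, 1 (*BSC5*) had an unadjusted p under 0.05, as did 877 transcripts in all. The largest difference among the 7 was in *BSC4*, at 0.38 and 0.44 FPKM in *sup45-ts* cells and 0.30 and 0.31 FPKM in *SUP45* cells (log2 fold change 0.54, SE 0.25, edgeR adjusted p = 0.434), from 17 to 26 expected counts per library.

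Between the temperatures the choice of scaling matters. edgeR's TMM factors set the typical transcript to no change, with medians of 0.03 in *sup45-ts* and 0.01 in *SUP45* cells, while library totals, on which FPKM rests, put the median log2 fold change of all transcripts at 0.66 in *sup45-ts* and 0.56 in *SUP45* cells. A gene can therefore be higher in FPKM at 37°C and not be called. The changes between temperatures that follow are relative to the typical transcript.

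In *sup45-ts* cells, 6 of the 7 mRNAs were higher at 37°C than at 25°C and *BSC6* was lower, where 44.6% of all transcripts were higher and 42.0% lower. With library totals the split over all transcripts became 4218 higher and 1698 lower, in place of 3015 and 2840. *BSC5* rose by a log2 fold change of 5.12 (SE 0.10, edgeR adjusted p = 2.88e-10), *BSC1* by 3.95 (SE 0.24) and *BSC4* by 2.92 (SE 0.20), and these 3 also rose most between the strains. *BSC2* and *PDE2* rose by 0.84 (SE 0.09) and 0.83 (SE 0.06), and *BSC3* by 0.27 (SE 0.10, edgeR adjusted p = 0.0274). The call for *BSC3* was lost without *sup45-ts* replicate 1 at 25°C (edgeR adjusted p = 0.161) or without *sup45-ts* replicate 2 at 37°C (edgeR adjusted p = 0.144). *BSC6* fell by 0.68 relative to the typical transcript, but its FPKM was about level, at 26.9 and 25.8 at 37°C against 26.1 and 28.2 at 25°C, and with library totals it was not called (log2 fold change -0.04, edgeR adjusted p = 0.610).

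In *SUP45* cells, 5 of the 7 mRNAs were higher at 37°C than at 25°C, where 38.4% of all transcripts were higher and 37.4% lower, or 4307 and 1218 of 6767 with library totals. *BSC5* rose by 1.97 (SE 0.09, edgeR adjusted p = 3.55e-08) and *BSC1* by 1.28 (SE 0.23, edgeR adjusted p = 0.000679). *BSC4* (0.75), *PDE2* (0.19) and *BSC6* (0.16) passed more narrowly. DESeq2 called 4 of the 7, without *BSC4* (adjusted p = 0.0972). *BSC4* and *BSC6* lost their calls without *SUP45* replicate 1 at 37°C (edgeR adjusted p = 0.0627 and 0.0883), *BSC6* also without *SUP45* replicate 2 at 37°C (0.0621), and all 3 without *SUP45* replicate 1 at 25°C (0.0668 for *BSC4*, 0.0555 for *PDE2* and 0.132 for *BSC6*). Without *SUP45* replicate 1 at 25°C 2 of the 7 were higher and 1 lower, *BSC2* (log2 fold change -0.30, edgeR adjusted p = 0.0122), and without *SUP45* replicate 1 at 37°C 3 were higher. *BSC2*, at 27.1 and 28.0 FPKM at 37°C against 19.4 and 23.4 FPKM at 25°C, had a log2 fold change of -0.19 (edgeR adjusted p = 0.0909), which turned to 0.36 (adjusted p = 0.00737) with library totals. *BSC3* was not called either (0.02, edgeR adjusted p = 0.848) but was with library totals (0.57, adjusted p = 0.000586).

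**Figure D2:**
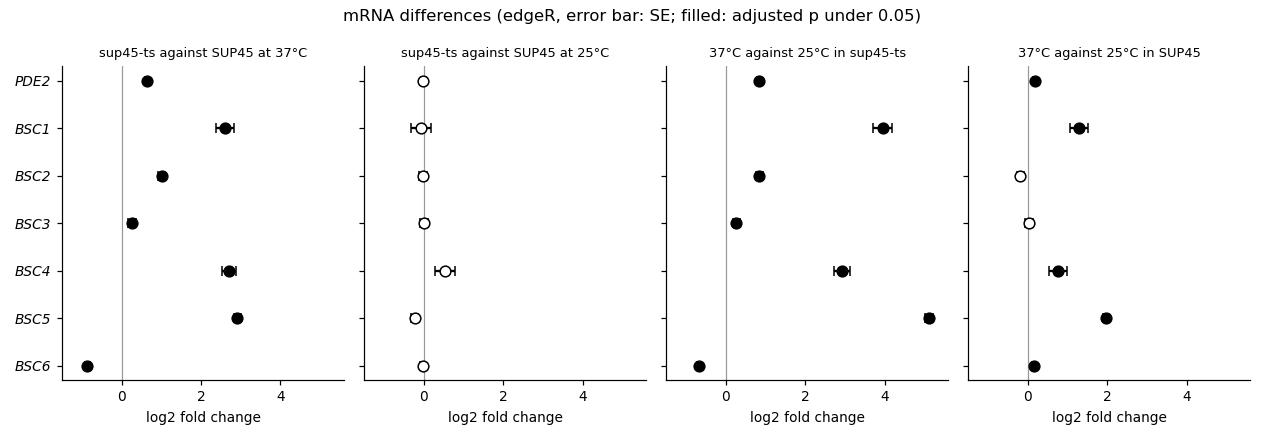
Log2 fold change of each gene's mRNA (x axis, points, with the standard error as a bar) in 4 comparisons, filled where edgeR's adjusted p was under 0.05. The strain differences at 37°C run between -0.86 for *BSC6* and 2.92 for *BSC5*, and at 25°C all 7 points are open.

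The strain difference at 37°C minus that at 25°C was tested directly. It was above 0 for 5 genes and below 0 for *BSC6*, where 34.5% of all transcripts were called above and 35.7% below 0. The values were 3.15 for *BSC5*, 2.67 for *BSC1*, 2.16 for *BSC4*, 1.03 for *BSC2*, 0.65 for *PDE2* and -0.84 for *BSC6*, with edgeR adjusted p-values up to 0.000210. For *BSC3* it was 0.25 (SE 0.14, edgeR adjusted p = 0.140) and was not called.

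*PDE2* is 1 of many genes that set cAMP. Of 15 other genes of the cAMP and protein kinase A pathway, at 37°C 5 were higher in the *sup45-ts* strain, 4 were lower and 6 did not pass the test, with a median log2 fold change of 0.13 against -0.01 over all transcripts. Over all transcripts 39.5% were higher and 39.4% lower, so the list was not called more often than the background. *PDE1*, the low-affinity cAMP phosphodiesterase, was at 525 and 484 FPKM in *sup45-ts* cells against 125 and 137 FPKM in *SUP45* cells, a log2 fold change of 1.95 (SE 0.06, edgeR adjusted p = 1.33e-08), larger than that of *PDE2*. *IRA2*, a GTPase-activating protein that switches Ras off, was higher by 2.31, and *GPA2*, the G protein subunit of the glucose-sensing branch, by 1.42. *RAS1* fell by 1.09, *IRA1*, the paralog of *IRA2*, by 0.50 and *SRV2*, which binds adenylate cyclase, by 0.49. At 25°C 0 of the 15 were called by edgeR or DESeq2. In edgeR 4 of the 15 had an unadjusted p under 0.05, beside 877 of all 6767 transcripts.

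Of 12 termination, recycling and mRNA decay factors, at 37°C 4 were higher in the *sup45-ts* strain, 6 were lower and 2 did not pass, near the 39.5% higher and 39.4% lower over all transcripts, with a median log2 fold change of -0.13. *SUP45* fell by 0.69 and *SUP35*, which encodes eRF3, by 0.71, at 124 and 119 FPKM in *sup45-ts* cells against 205 and 194 FPKM in *SUP45* cells. *HCR1*, a factor linked to initiation and recycling, fell by 1.00. *NMD2* (0.69), which encodes the nonsense-mediated decay factor Upf2, *UPF3* (0.32) and *TPA1* (0.32) were the 3 that rose most. At 25°C edgeR called 0 of the 12, with 3 at an unadjusted p under 0.05, beside 877 of all 6767 transcripts. DESeq2 called 1 of the 12, beside 120 of all 6351 transcripts it tested.

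Across the 8 RNA-Seq libraries, which share the temperature shift and are 2 of each of 4 conditions, the log2 levels of the 7 mRNAs were correlated. Pearson's *r* was 0.81 to 0.99 for every pair without *BSC6*, and -0.97 to -0.80 for the pairs with it. How common such values are among all pairs was not counted. Within *SUP45* cells alone no correlation was computed. There the log2 fold changes at 37°C against 25°C were 1.97 for *BSC5*, 1.28 for *BSC1* and 0.75 for *BSC4*. For *PDE2* the change was 0.19, for *BSC6* 0.16, for *BSC3* 0.02 and for *BSC2* -0.19. The transcripts most like *PDE2* were *DBF20* (*r* = 0.999), YGR073C (*r* = 0.999) and *SOV1* (*r* = 0.998), and those most like *BSC5* were *RIM21*, *PKP2* and *DNL4* (*r* = 0.9994 to 0.9996). For *BSC1* they were *LDS1*, *RAD57* and *RAD14* (*r* = 0.997 to 0.998), for *BSC4* YHR097C, *OPY2* and *PPG1* (*r* = 0.997 to 0.998), for *BSC2* *TRM12*, YGL074C and *YAR1* (*r* = 0.993 to 0.994), and for *BSC6* *RET3*, *GET3* and YML079W (*r* = 0.997 to 0.998). Such closeness was common, since 391 transcripts had an *r* over 0.98 with *PDE2* and 526 with *BSC5*. *BSC3* had none above 0.98, and its closest were *HAP2*, *MEP1* and YHR177W (*r* = 0.943 to 0.945).

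CDS footprints leave out 15 nt at the start and 33 nt at the end of each CDS. Each condition gives 1 value, and the 95% intervals given with footprints cover counting error only. In heated *sup45-ts* cells, 5 of the 7 genes had at least 10 CDS footprints, *PDE2* with 1194, *BSC5* with 364, *BSC1* with 213, *BSC6* with 92 and *BSC2* with 55. *BSC3* and *BSC4* had 1 each, and over the other 3 conditions *BSC3* had 0 and *BSC4* had 1. For *BSC3*, 3 footprints would be 0.699 RPKM in heated *SUP45* cells. *BSC3* mRNA was present at 19.8 to 41.6 FPKM in every library, so that its count in these tables was near 0 where its mRNA was not. The ribosome profiling files per library, which were not used for footprints because their FPKM ran against CDS density, gave *BSC3* 53.75 and 28.43 expected counts in heated *sup45-ts* cells, 9.60 and 5.15 in heated *SUP45* cells, 73.91 and 54.39 in unheated *sup45-ts* cells and 36.72 and 25.65 in unheated *SUP45* cells. Among the 7 genes these were the highest counts of that kind. For *PDE2* in heated *SUP45* cells the counts of that kind were 0 and 0, beside 2008 CDS footprints. They therefore cannot decide whether *BSC3* carried ribosomes. The CDS footprint counts alone do not show that *BSC3* lacked ribosomes either. Whether reads of *BSC3* are shared with near-identical sequences was not tested.

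Between the strains, *PDE2* footprints followed its mRNA. Its CDS density was 121 RPKM (114 to 128) in heated *sup45-ts* cells against 78.9 RPKM (75.5 to 82.4) in heated *SUP45* cells, a ratio of 1.53 (1.42 to 1.64), beside a ratio of 1.55 in mean FPKM. At 25°C it was 38.2 RPKM in *sup45-ts* cells and 38.6 RPKM in *SUP45* cells, a ratio of 0.990 (0.911 to 1.08). Between the temperatures its density rose more than its mRNA, by a ratio of 2.04 (1.89 to 2.21) beside 1.67 in mean FPKM in *SUP45* cells. In *sup45-ts* cells the ratio was 3.16 (2.92 to 3.42) beside 2.77. Translation efficiency is the CDS RPKM divided by the mean FPKM. It was 0.976 (0.922 to 1.03) in heated *sup45-ts* cells and 0.987 (0.945 to 1.03) in heated *SUP45* cells. In unheated cells it was 0.858 (0.811 to 0.906) in *sup45-ts* and 0.805 (0.756 to 0.856) in *SUP45*. In neither strain did the intervals of the temperatures meet. The medians over all transcripts with at least 10 CDS footprints were 0.861, 0.803, 0.835 and 0.805 in the same order, so that *PDE2* was translated close to the median transcript.

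*BSC1* footprints did not follow its mRNA. It had 213 CDS footprints in heated *sup45-ts* cells, or 35.2 RPKM (30.6 to 40.3), against 2 in heated *SUP45* cells, or 0.128 RPKM (0.0156 to 0.464). The ratio of densities was 274 (74.9 to 2277), while mean FPKM differed by a ratio of 6.03. Its translation efficiency was 1.16 (1.01 to 1.33) in heated *sup45-ts* cells, above the median transcript, and 0.0256 (0.00310 to 0.0926) in heated *SUP45* cells. At 25°C there was 1 footprint in *sup45-ts* cells and 0 in *SUP45* cells, at 0.95 to 1.78 FPKM of mRNA. The combined tables do not show whether both replicates carry the footprints, so this difference has no replicate check.

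*PRM7* had 119 CDS footprints in heated *sup45-ts* cells against 13 in heated *SUP45* cells, a ratio of 23.6 (13.3 to 45.5). Per length, *PRM7* held 25.6% (20.2 to 32.1) of the *BSC1* density in heated *sup45-ts* cells. In heated *SUP45* cells the 2 *BSC1* footprints leave that share between 67.3% and 2714%, an interval that does not meet the one in *sup45-ts* cells.

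*BSC5* CDS density was 39.7 RPKM (35.7 to 44.0) in heated *sup45-ts* cells against 3.81 RPKM (3.07 to 4.69) in heated *SUP45* cells, a ratio of 10.4 (8.24 to 13.3) beside 7.51 in mean FPKM. Its translation efficiency was low in both heated strains, 0.201 (0.181 to 0.223) in *sup45-ts* cells and 0.145 (0.117 to 0.179) in *SUP45* cells, above only 1.98% of transcripts in *sup45-ts* and 1.94% in *SUP45* cells. At 25°C there were 7 CDS footprints in *sup45-ts* cells and 5 in *SUP45* cells.

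*BSC2* and *BSC6* had fewer footprints per mRNA in *sup45-ts* than in *SUP45* cells at 37°C. *BSC2* had 13.0 RPKM (9.76 to 16.9) in heated *sup45-ts* cells against 16.0 RPKM (13.7 to 18.6) in heated *SUP45* cells, a ratio of 0.809 (0.586 to 1.10) beside a ratio of 2.00 in mean FPKM. Its translation efficiency was 0.235 (0.177 to 0.306) in heated *sup45-ts* cells against 0.582 (0.499 to 0.675) in heated *SUP45* cells. *BSC6* had 9.86 RPKM (7.95 to 12.1) in heated *sup45-ts* cells against 35.2 RPKM (32.9 to 37.7) in heated *SUP45* cells, a ratio of 0.280 (0.223 to 0.348) beside 0.548 in mean FPKM. Its translation efficiency was 0.374 (0.302 to 0.459) in heated *sup45-ts* cells and 0.732 (0.683 to 0.783) in heated *SUP45* cells, while at 25°C it was 0.777 in *sup45-ts* and 0.753 in *SUP45* cells. For both genes the counting intervals of the efficiencies at 37°C did not meet.

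**Figure D3:**
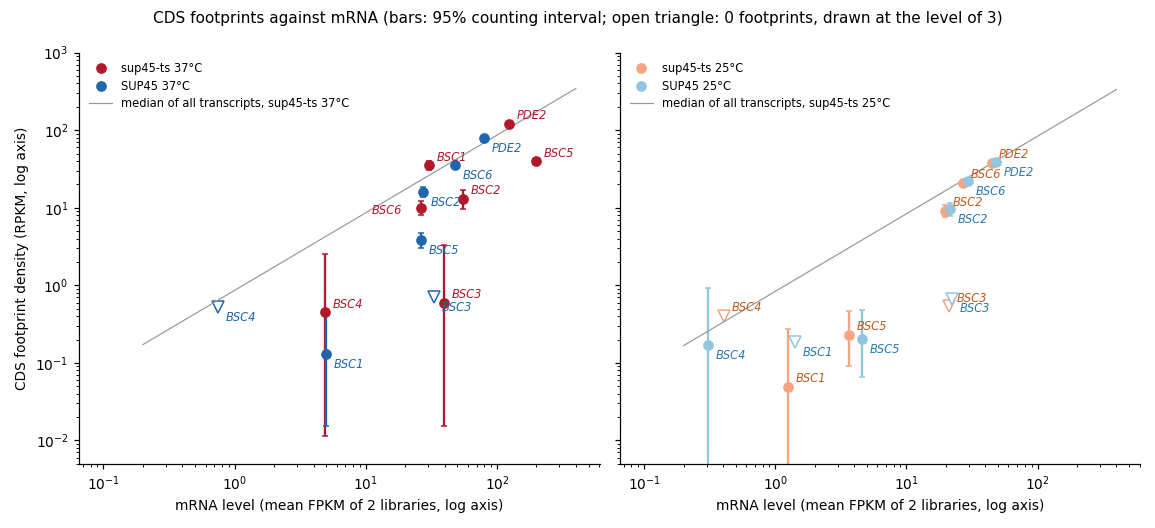
CDS footprint density in RPKM (y axis, log) against mean mRNA level in FPKM (x axis, log) of each gene at 37°C (left) and 25°C (right), with 95% counting intervals as bars and the median translation efficiency of all transcripts in *sup45-ts* cells as a grey line. *PDE2* lies near the line in all 4 conditions, *BSC1* near it only in heated *sup45-ts* cells (35.2 RPKM), and *BSC3* far under it throughout.

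Extension footprints were present in 6 of the 7 genes in heated *sup45-ts* cells, all but *BSC3*, where 80.9% of all transcripts had at least 1. They were present in 1 gene (*BSC5*) in heated *SUP45* cells (14.9% of all transcripts), and in 2 genes (*PDE2* and *BSC5*) in unheated cells of both strains (34.7% of all transcripts in *sup45-ts* and 19.9% in *SUP45*). The deposited readthrough efficiency compares the footprint density of the extension with that of the CDS on a log2 scale, and is also given here as a percentage of the CDS density. The extension is not trimmed at its ends as the CDS is. The paper cautions that ribosomes also stalled at the next in-frame stop codon, so that readthrough may look somewhat higher than it was. The *PDE2* extension ends at such a stop codon.

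*PDE2* had 75 extension footprints and 1194 CDS footprints in heated *sup45-ts* cells, which gives a density beyond the stop codon of 146% (114 to 184) of that before it, or a log2 readthrough efficiency of 0.54. In heated *SUP45* cells it had 0 extension footprints beside 2008 in the CDS, which allows up to 3.46% at 3 footprints. At 25°C it had 2 extension footprints in each strain, or 3.68% (0.445 to 13.3) in *sup45-ts* cells and 4.54% (0.549 to 16.4) in *SUP45* cells. The intervals of heated *sup45-ts* cells and of the other conditions did not meet. Among the 5207 transcripts with a finite value in heated *sup45-ts* cells, *PDE2* was above 47.4% of them and the median was 0.67, close to that of *PDE2*.

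All 75 footprints of *PDE2* in the 3'-UTR of heated *sup45-ts* cells lay within the 66 nt before the next in-frame stop codon, and 0 in the 39 nt after it. A count of 0 allows a density there of up to 6.77% of that in the extension. Over all transcripts with room after the extension, the density there was 36.0% of the extension density in this condition, and of the 1113 with at least 50 extension footprints and at least 30 nt after them, 44 (3.95%) likewise had 0. The 3'-UTR counts hold in-frame footprints, and a footprint needs room to align before the transcript's end, so 39 nt give few positions.

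*BSC2* had 21 extension footprints beside 55 in the CDS in heated *sup45-ts* cells, a density of 143% (81.9 to 240) of the CDS. In the other 3 conditions it had 0 extension footprints beside 413 CDS footprints in all, which allows up to 2.71%. *BSC6* had 4 extension footprints beside 92 in heated *sup45-ts* cells, or 35.6% (9.51 to 94.4), and 0 beside 2055 in the other 3 conditions, which allows up to 1.20%. *BSC1* had 7 beside 213 in heated *sup45-ts* cells, or 17.5% (6.94 to 36.6), above only 5.80% of the transcripts with a value, and the 3 CDS footprints of the other conditions set no limit there. Among the 388 transcripts with a full-length extension, the median of the 307 with a value in this condition was 38.4%. That median lay inside the interval of *BSC6*, below those of *BSC2* and *BSC5* (66.4%, 44.2 to 96.5) and above that of *BSC1*. Over all 5207 transcripts with a value in heated *sup45-ts* cells the median was 159%, inside the interval of *BSC2*. *BSC2* was above 46.99% of these transcripts, *BSC5* above 26.98% and *BSC6* above 14.98%. None of the 5 genes with at least 10 CDS footprints thus stood above the median of all transcripts there, while *BSC2* and *BSC5* stood above that of full-length extensions. *BSC4* was above 55.5% of all transcripts with a value, but from 1 extension and 1 CDS footprint.

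**Figure D4:**
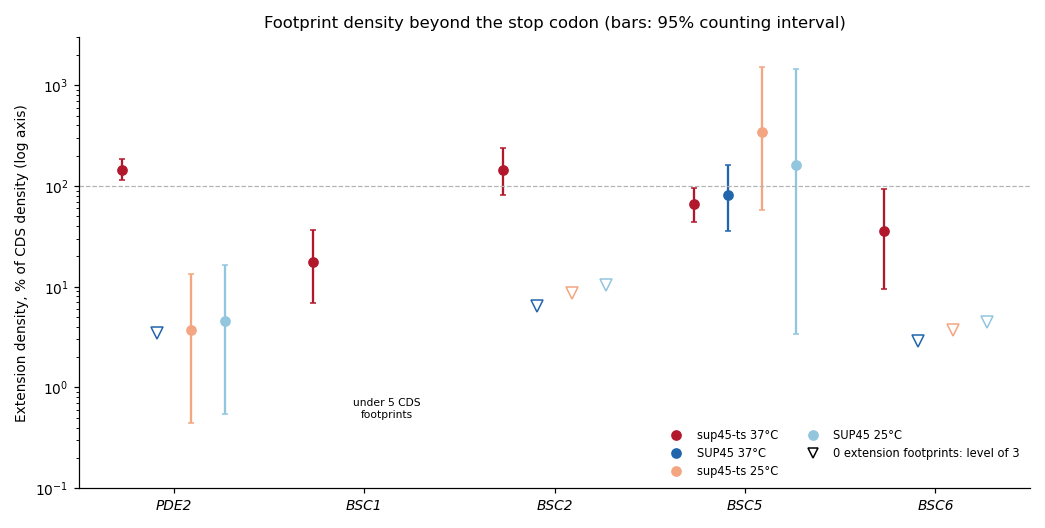
Footprint density in the extension as a percentage of the CDS density (y axis, log) for the 5 genes with at least 5 CDS footprints in a condition, with 95% counting intervals as bars and open triangles where no extension footprint was found, drawn at the level of 3 footprints. *PDE2*, *BSC2* and *BSC6* are high only in heated *sup45-ts* cells (146%, 143% and 35.6%), and *BSC5* lies between 66.4% and 346%, with wide intervals outside heated *sup45-ts* cells.

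*BSC5* alone of the 7 genes had extension footprints in heated *SUP45* cells. In heated *sup45-ts* cells it had 30 extension footprints beside 364 in the CDS, or 66.4% (44.2 to 96.5) of the CDS density. In heated *SUP45* cells it had 9 beside 90, or 80.6% (35.7 to 160), the 43rd highest of 945 transcripts with a value, whose median was 1.58%. Only transcripts with an extension footprint have a value, so a transcript with few CDS footprints can only have a high value. The CDS density of *BSC5* there, 3.81 RPKM, was under the 5 RPKM of the filter given below, so its rank is not a fair comparison with well-covered transcripts. Added up over *SUP45* cells at both temperatures and unheated *sup45-ts* cells, 13 extension footprints beside 102 in the CDS give 103% (52.9 to 184), while *PDE2* over the same tables had 4 beside 4290, or 2.16% (0.589 to 5.54). Footprints beyond the *BSC5* stop codon were thus less dense than those before it in heated *sup45-ts* cells, where the interval left out an equal density. In the other conditions together, where 90 of the 102 CDS footprints came from heated *SUP45* cells, the interval included an equal density. No difference between the heated strains was detectable at this depth.

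Ribosomes were also found on YNR068C in every condition. Its CDS had 90 footprints in heated *sup45-ts* cells, 54 in heated *SUP45* cells, 6 in unheated *sup45-ts* cells and 8 in unheated *SUP45* cells. Per length this was 45.7% (35.9 to 57.7) of the *BSC5* density in heated *sup45-ts* cells, against 111% (77.6 to 157) in heated *SUP45* cells, intervals that did not meet. In mRNA the share was 61.7% in heated *sup45-ts* cells and 85.9% in heated *SUP45* cells. The last 33 nt of the *BSC5* 3'-UTR window overlap the 5'-UTR window of YNR068C on the same strand, where a read cannot be assigned to either gene, and whether the stop codon of *BSC5* is present in the W303 strains used was not tested.

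**Figure D5:**
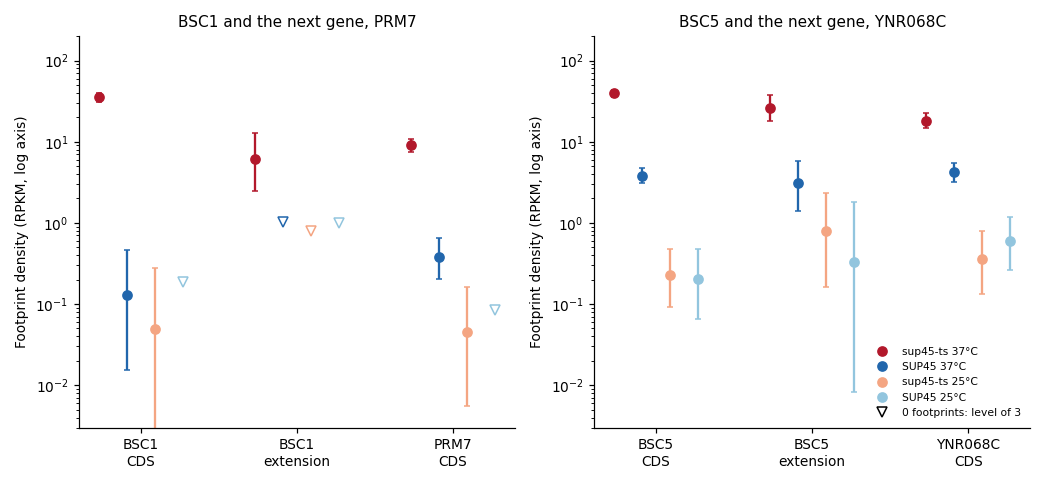
Footprint density in RPKM (y axis, log) on the CDS and the extension of *BSC1* and *BSC5* and on the CDS of the next gene on the same strand, with 95% counting intervals as bars and open triangles for 0 footprints at the level of 3. For *BSC5* the CDS, the extension and YNR068C all carry footprints in each condition (39.7, 26.4 and 18.1 RPKM in heated *sup45-ts* cells), and for *BSC1* all 3 do so only in heated *sup45-ts* cells.

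A filter of at least 5 RPKM in the CDS and 0.5 RPKM in the 3'-UTR kept 5 of the 7 genes in heated *sup45-ts* cells (*PDE2*, *BSC1*, *BSC2*, *BSC5* and *BSC6*), 0 in heated *SUP45* cells and 1 (*PDE2*) in each strain at 25°C. Unlike the paper, this filter does not leave out genes that lack an experimental UTR annotation, and all 6 *BSC* genes have the default 3'-UTR window. The ribosome profiling files per library were not used for footprints, since their FPKM had a Spearman's ρ of -0.30 to -0.24 with CDS density across transcripts, against 0.87 to 0.92 for RNA-Seq FPKM, and gave 0 to 8.04 expected counts for each of the 7 genes except *BSC3*, which had 5.15 to 73.91.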

How the data were processed

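RNA-Seq and ribosome profiling libraries were grouped by strain and temperature from their labels. The authors aligned reads to their S288C (R64) transcriptome and ran RSEM, and deposited expected counts and FPKM per transcript. From P-site positions, with replicates combined, the authors deposited whole counts of frame 0 footprints, RPKM and the log2 readthrough efficiency for 6575 transcripts. Libraries held 107324550 to 153654244 expected counts, and those of footprints summed to 6463100 to 21557248, which limits genes with few footprints.

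Expected counts were rounded and tested with edgeR (4.0.16, quasi-likelihood, TMM, filterByExpr, all 8 libraries in one fit, Benjamini-Hochberg adjustment, threshold 0.05), which was tested on simulated data. The members and lists were chosen with earlier results of these data known. The text names all 7 genes, the downstream genes (YNR068C, and *PRM7* for its synonym YDL038C), *SUP45*, *SUP35*, *PDE1*, the 3 highest and 3 lowest called genes of each list at 37°C, and the 3 transcripts most alike by Pearson's *r*. Footprint intervals are exact (Poisson for 1 count, Clopper-Pearson for a ratio), at 95%, and a count of 0 was read as up to 3 footprints. Densities of the extension and 3'-UTR were computed from the counts. Medians of translation efficiency used transcripts with at least 10 CDS footprints. Alternatives were DESeq2 (1.42.0) and its size factors, library totals (chosen after seeing the data), no filter, fewer groups, a replicate block, sums per gene, each library left out, 0.5 added footprints, the whole 3'-UTR or whole CDS length, Spearman's ρ, the RPKM filter, densities scaled by CDS footprints alone, and each replicate's FPKM. Positions and neighbours came from RefSeq's R64 table, which matched 6 of 7 genes. No sequence was used, so stop codon contexts were not analysed here. Python was 3.11.15, scipy 1.17.1 and R 4.3.3.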

Additional observations from a re-analysis of the deposited data

Results flagged for a closer look

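For 6 of the 7 genes the strain difference at 37°C differed from that at 25°C by edgeR's test of the difference itself (8 libraries, log2 scale). It was 0.65 for *PDE2* (adjusted p = 8.96e-05), 2.67 for *BSC1* (adjusted p = 7.70e-05), 1.03 for *BSC2* (adjusted p = 8.64e-05), 2.16 for *BSC4* (adjusted p = 0.000210), 3.15 for *BSC5* (adjusted p = 1.10e-07) and -0.84 for *BSC6* (adjusted p = 1.64e-05), in edgeR in each case. Across all transcripts 34.5% were above and 35.7% below 0 in the same test.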

How the results depend on the processing

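Across each library left out, the number of the 7 genes called was 6 to 7 for *sup45-ts* against *SUP45* at 37°C, 0 at 25°C, 6 to 7 for 37°C against 25°C in *sup45-ts* cells, 3 to 5 for 37°C against 25°C in *SUP45* cells and 6 for the difference of strain differences. A lone library was then assumed to vary like the other groups. The replicate block gave 7, 0, 7, 5 and 6 calls, as without it. Deviations of same-numbered libraries correlated by 0.02 to 0.22. With 2 libraries per group this cannot show whether they were handled together, and the labels name no pairing. With library totals in place of TMM, the log2 fold change of *BSC2* at 37°C against 25°C in *SUP45* cells turned to 0.36, since this scaling moves every transcript alike (the median of all transcripts was 0.56 in place of 0.01). The filter on RPKM left 0 of 1 gene with extension footprints in heated *SUP45* cells, 1 of 2 in unheated *sup45-ts* cells and 1 of 2 in unheated *SUP45* cells, since fewer genes pass it. Over the whole 3'-UTR the log2 readthrough efficiency of *PDE2* in heated *sup45-ts* cells was -0.13, because the same 75 footprints are spread over 105 nt. Scaled by CDS footprints alone, densities in heated *sup45-ts* cells were 138 in place of 121 RPKM for *PDE2*, 40.3 in place of 35.2 for *BSC1* and 45.39 in place of 39.7 for *BSC5*. Of the log2 fold changes of single genes, 500 kept their direction and side of the threshold under an alternative, 15 lost the call, 2 gained it and 1 reversed. Few footprints limit *BSC4* and, outside heated *sup45-ts* cells, *BSC1*, for which readthrough could not be measured. It could not be measured for *BSC3* either, which had 0 CDS footprints at 33.2 FPKM in heated *SUP45* cells, where *BSC2* had 175 at 27.5 FPKM.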
